A study of Mus musculus with 9 samples.

Results

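Stressed mice given an inhibitor of KDM5C (the group SA:ANH-KDM5Ci) were set against stressed mice given vehicle (SA:ANH-vehicle) over all genes of a count table from RNA sequencing of the medial prefrontal cortex. The titles of the samples put 3 libraries in each group, 6 of the 9 in the series, and 15144 of 36172 features passed a filter on low counts and were tested. All mice were of the inbred strain DBA2/J, both groups had gone through 5 days of social defeat stress and both are labelled as the SA:ANH subtype, a name that no source used here explains. The treatment label of the vehicle group reads saline. The remaining 3 libraries, from mice that were not stressed (NS, treatment label saline), entered the fit to estimate the spread, and their values are given as a baseline. The identity, dose, route and timing of the inhibitor and the age of the mice are not given in the sources used here. Whether replicates were different mice is not told by the labels. The p-values therefore reflect the spread among these libraries, part of which may be technical.

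KDM5C is an X-linked enzyme that removes methyl groups from lysine 4 of histone H3, a mark found at active promoters and enhancers. Its relatives are KDM5A, KDM5B and the Y-linked KDM5D, and loss of KDM5C in humans causes intellectual disability. The medial prefrontal cortex helps to regulate emotion and behaviour toward other animals. Social defeat exposes a mouse to an aggressor again and again, and such stress raises circulating glucocorticoid hormones, which act on gene expression through the glucocorticoid receptor.

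Of the 15144 genes tested, 135 (0.891%) were higher and 245 (1.62%) were lower with the inhibitor by edgeR's quasi-likelihood test at an adjusted p under 0.05, together 380 (2.51%). Most of these changes were of middle size. A log2 difference of 0.3 to 0.5 was seen in 45 genes that rose and 93 that fell, 0.5 to 1 in 42 and 88, 1 to 2 in 27 and 31, over 2 in 4 and 4, and under 0.3 in 17 and 29. The median log2 difference was 0.54 among the genes that rose, -0.50 among those that fell and 0.00 over all genes. Genes that fell were on the whole less abundant than those that rose: of 2508 genes at a mean of 100 CPM or more (counts scaled to the library total), 15 rose and 5 fell, whereas of 3722 genes at 1 to 10 CPM, 35 rose and 102 fell. Without SA:ANH-vehicle replicate 2 the counts were 85 higher and 118 lower. Genes that fell numbered 131 without SA:ANH-vehicle replicate 1, and 144 and 105 without SA:ANH-KDM5Ci replicates 2 and 3. Because of this, examples were taken from the 73 higher genes (0.482% of those tested) and 85 lower genes (0.561%) that kept their call when any 1 of the 9 libraries was left out (158 in all, 1.04%), unless a sentence says otherwise.

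**Figure D1:**
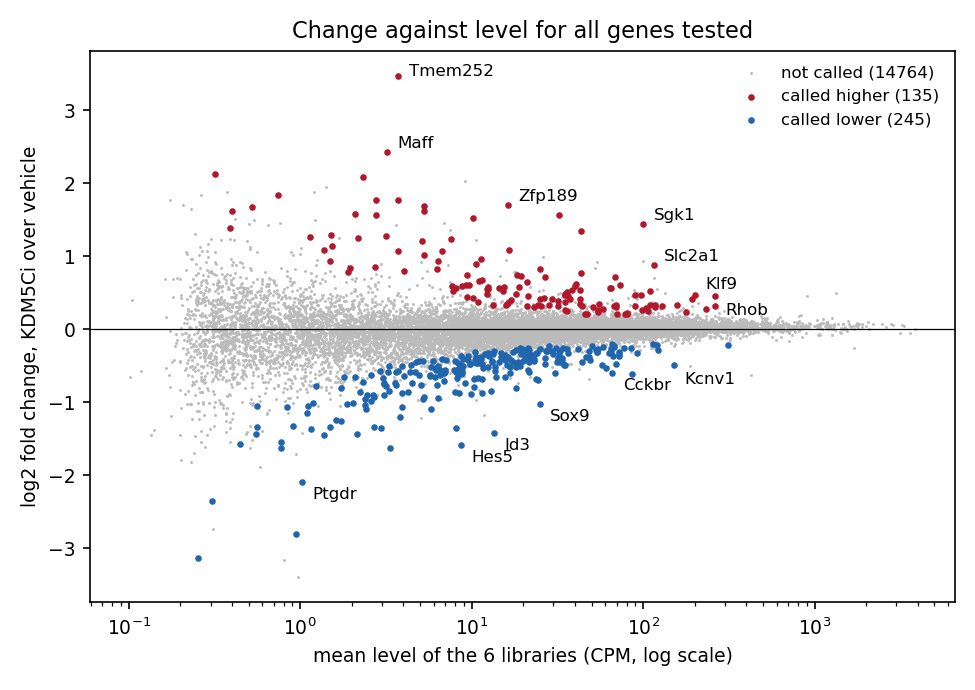
Log2 fold change (vertical axis) against the mean level of the 6 libraries in CPM (horizontal log axis) for the 15144 genes tested, with the 135 called higher in red, the 245 called lower in blue and the others in grey. Most called genes lie within 1 log2 unit of 0, and few genes at 100 CPM or more were called lower.

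The libraries held 29845097 to 42196472 counts. Markers of cortical excitatory neurons were abundant in every library, with Camk2a at 3612, 3807 and 3636 CPM with vehicle and 3787, 3579.6 and 3318 CPM with the inhibitor. Markers of tissue that borders the cortex differed between the libraries. The score of 27 meningeal and fibroblast markers, the median of the gene-centred log2 CPM of the list, was 0.577, 0.051 and 0.0729 with vehicle, -0.399, -0.337 and -0.341 with the inhibitor and -0.188, 0.279 and 0.345 in NS. The groups compared did not overlap. The summed level of these markers was 768.5 to 1044 CPM with vehicle, 525.4 to 668 CPM with the inhibitor and 617.3 to 966.8 CPM in NS, and none of them was at 0. The score of 21 striatal neuron markers was highest in SA:ANH-KDM5Ci replicate 1, at 0.722, against -0.134 and 0.164 in the other inhibitor libraries and -0.214 to 0.0096 with vehicle. For 24 myelin markers the scores were 0.434, 0.122 and 0.286 with the inhibitor and 0.346, -0.284 and -0.285 with vehicle. With the meningeal score as a covariate 35 of the 380 calls were kept, 33 of them among the 158 genes called whichever library was left out. With the striatal score 178 and with the myelin score 246 were kept. The covariate fits were chosen after seeing the data. The meningeal score separates the 2 groups, so such a fit removes part of any difference between them. Such a fit also estimates what remains with less precision, so a lost call need not mean a smaller difference. With the score, Hes5, whose call was lost, was at -1.78 against -1.59 without it. Foxc1, whose call was lost too, was at -0.40 against -0.94. Foxc1 is itself a member of the marker list behind the score, so that fit adjusts it in part by its own level. Beyond these fits, the part of tissue makeup in the changes was not tested. In bulk tissue, fewer cells of a type and less RNA per cell cannot be told apart.

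**Figure D2:**
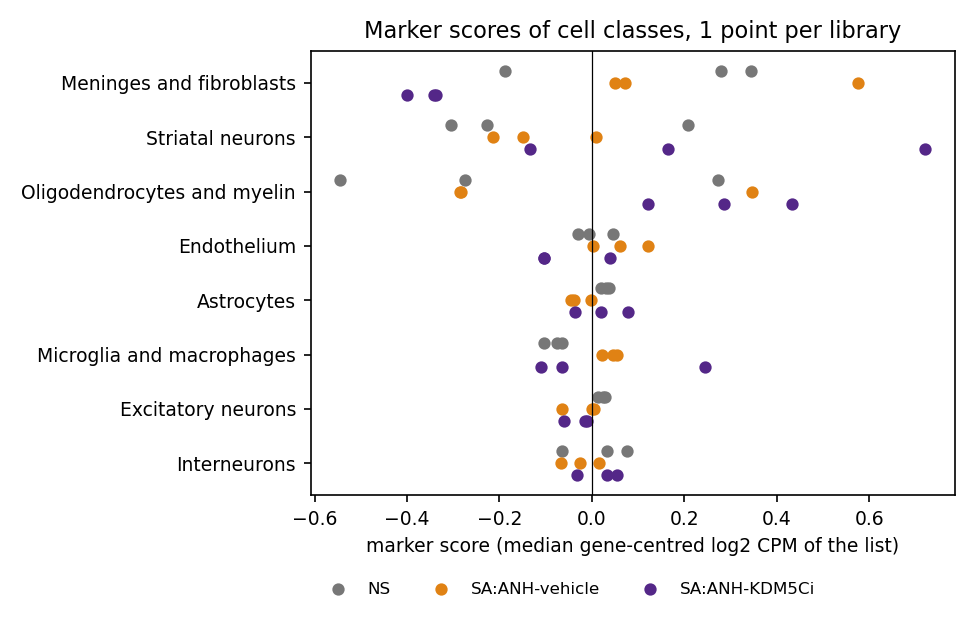
Marker scores of 8 cell classes (horizontal axis, median gene-centred log2 CPM of a list's members), 1 point per library, in NS (grey), SA:ANH-vehicle (orange) and SA:ANH-KDM5Ci (purple). The meningeal scores of the inhibitor libraries, from -0.399 to -0.337, lie below all others, while scores of excitatory neurons, interneurons and astrocytes lie between -0.0676 and 0.0781.

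The targeted enzyme was present in every library. Kdm5c was at 63.98, 66.6 and 60.7 CPM with vehicle and at 59.4, 57.9 and 57.5 CPM with the inhibitor, and its groups did not overlap, with a log2 difference of -0.13 (SE 0.05, adjusted p = 0.222). Its transcript does not report the enzyme's activity, which is what an inhibitor acts on. Kdm5a, Kdm5b and Kdm5d had log2 differences of -0.06, -0.10 and -0.10 (adjusted p = 0.716, 0.582 and 0.762). Of 22 methyltransferases and demethylases of H3K4, 0 rose and 1 fell, Kdm1b, whose call (log2 -0.37, SE 0.08, adjusted p = 0.0365) was lost without any 1 of 8 libraries, all but NS replicate 1. The list's median was -0.06. Among 32 other histone lysine methylation enzymes and 36 enzymes of histone acetylation and DNA methylation 0 rose and 1 fell in each, and neither call survived the removal of every library. Germline genes, a class known to gain expression when KDM5C is lost, had 8 members tested of 21 listed, with 0 called, and 3 were at 0 in all libraries. The 2 of lowest p were Sycp3 (0.25) and Nanos3 (-0.21). Over all genes 0.891% rose and 1.62% fell, so 0 or 1 calls in a list of these sizes is close to those shares.

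Genes induced by glucocorticoids were higher with the inhibitor. Of 32 tested, 18 rose, against 0.891% of all genes, and 0 fell. This list, like the others, was chosen with earlier results of these data known, so its share is a description and not a test. The list's median log2 difference was 0.53, and 15 of the rises held whichever library was left out. Without 1 library the count ran from 16 to 19. The kinase gene Sgk1 was at 56.6, 53.05 and 51.6 CPM with vehicle and at 161, 134 and 143 CPM with the inhibitor. Also among the 18 were the transcription factor genes Klf9, Klf15 and Cebpd and the small GTPase gene Rhob. Of these, Klf9 and Rhob were of high level and moderate change. Klf9, a Kruppel-like factor induced by steroid and thyroid hormones, was at 171, 166 and 167 CPM with vehicle and at 238, 226 and 230.3 CPM with the inhibitor (log2 0.46, SE 0.05, adjusted p = 0.000278). Rhob, a small GTPase of endosomes and actin stress fibres, was at 223, 218 and 226 CPM with vehicle and at 311, 297 and 306 CPM with the inhibitor (log2 0.45, SE 0.05, adjusted p = 0.000226). In NS they were at 154 to 174 and 217 to 242 CPM, so the inhibitor libraries lay above both other groups. Klf15, a regulator of amino acid and glucose metabolism, rose from 16.4 ± 0.522 to 25.5 ± 1.32 CPM (mean ± SD, n = 3, log2 0.64). Cebpd, a C/EBP factor of acute stress, rose from 3.09 ± 0.841 to 7.24 ± 1.73 CPM (log2 1.21), and Arrdc2, an arrestin domain gene, from 7.46 ± 1.14 to 13.9 ± 1.99 CPM (log2 0.89). Their adjusted p values were 0.000209, 0.0074 and 0.00325. With the meningeal score as a covariate 5 of the 18 calls were kept, those of Sgk1, Nfkbia, Errfi1, Ddit4 and Map3k6, and 15 with the striatal score.

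The other members of the hormone list and the receptors stood as follows. Calls that needed single libraries were those of Bcl6, lost without SA:ANH-KDM5Ci replicate 3 (adjusted p = 0.0648), Hif3a, which needed SA:ANH-vehicle replicates 1 and 3 (0.0525 and 0.051 without each), and Plin4, which needed replicates 2 and 3 of that group (0.0977 and 0.0756). Of the 14 members without a call, 12 had a positive log2 difference. The receptors are named here outside the rule for named genes, after their values were seen. Nr3c1, the glucocorticoid receptor, was at 180.2, 160.0 and 152 CPM with vehicle and at 139, 140.0 and 141 CPM with the inhibitor (log2 -0.23, adjusted p = 0.0722), and Nr3c2, the mineralocorticoid receptor, had a log2 difference of 0.11 (adjusted p = 0.478). Fkbp5, a co-chaperone of the receptor and itself a target, was at 30.4, 33.1 and 32.5 CPM with vehicle and at 65.6, 48.96 and 49.5 CPM with the inhibitor. The full palindromic glucocorticoid response element (AGAACA, 3 bases of any kind, TGTTCT) was found on either strand in 0 of 11898 promoters searched (250 bases before to 50 after the start), and so in none of the 26 of this list.

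Factors that respond to cell stress rose in small numbers within lists that otherwise stayed near 0. Of 21 p53 targets 5 rose (23.8%, against 0.891% of all genes) and 0 fell, with a median of 0.08. Cdkn1a, the cell cycle inhibitor p21 and also a glucocorticoid target, was at 15.4, 19.9 and 19.2 CPM with vehicle and at 30.6, 30.1 and 35.2 CPM with the inhibitor. Pmaip1, which encodes the death-promoting protein NOXA, was at 2.55, 2.58 and 2.32 CPM with vehicle and at 8.92, 6.88 and 8.26 CPM with the inhibitor. For both genes the inhibitor libraries lay wholly above the vehicle libraries. Fas, a death receptor, rose by 1.24 and Trp53inp1, a stress protein of autophagy, by 0.74. These 4 increases had adjusted p of 0.000692, 9.61e-06, 0.0038 and 0.00459. Plk2, a Polo-like kinase, rose by 0.27, a call that ended when SA:ANH-vehicle replicate 2 was left out (adjusted p = 0.0597). Of 29 bZIP factors 4 rose (13.8%) and 0 fell. Maff and Mafk, small Maf proteins that pair with other bZIP factors, were at 0.937, 1.12 and 0.971 CPM with vehicle and at 5.48, 4.65 and 6.07 CPM with the inhibitor, and at 7.55, 8.17 and 7.21 CPM and 15.7, 15.6 and 13.5 CPM, respectively, with log2 differences of 2.42 and 0.97 (adjusted p = 9.61e-06 and 0.000107). Nfe2l2, which encodes NRF2, was at -0.34 (adjusted p = 0.0633), and of 26 NRF2 targets and redox enzymes 0 were called.

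Several restraints on growth signalling rose. Of 27 FOXO targets and inhibitors of mTORC1, 4 rose (14.8%, against 0.891% of all genes) and 0 fell, with a median of 0.02. Ddit4, an inhibitor of mTORC1, was at 26.6, 22.8 and 24.5 CPM with vehicle and at 74.9, 55.3 and 57.5 CPM with the inhibitor, and Sesn1, a sestrin that holds back mTORC1 when amino acids are scarce, at 60.6, 60.5 and 58.99 CPM with vehicle and at 74.4, 71.97 and 78.6 CPM with the inhibitor. Their log2 differences were 1.34 and 0.32 (adjusted p = 9.01e-05 and 0.0034). Of 15 feedback inhibitors of ERK signalling 2 rose (13.3%). Errfi1, which restrains the EGF receptor, rose from 31.9 ± 1.56 to 49.1 ± 2.32 CPM, and Dusp5, a nuclear phosphatase of ERK, from 2.40 ± 0.645 to 5.07 ± 0.293 CPM (adjusted p = 5.78e-05 and 0.0104). The Sprouty and Spred genes in that list were not called. Of 31 immediate early genes 2 rose (6.45%) and 0 fell. The 2 were Maff and Apold1, an apolipoprotein-like gene of blood vessels (log2 1.52, SE 0.15, adjusted p = 0.000122). Fos and Npas4, activity-induced factors named after their values were seen, were at -0.31 and -1.17 with adjusted p of 0.903 and 0.518. Atf4, the effector of the integrated stress response, rose by 0.34, a call lost without any 1 of 6 libraries, and was the 1 member of 26 in its list to be called. Of 31 heat shock genes 0 rose and 1 fell, and of 23 genes of the unfolded protein response 0 were called.

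**Figure D3:**
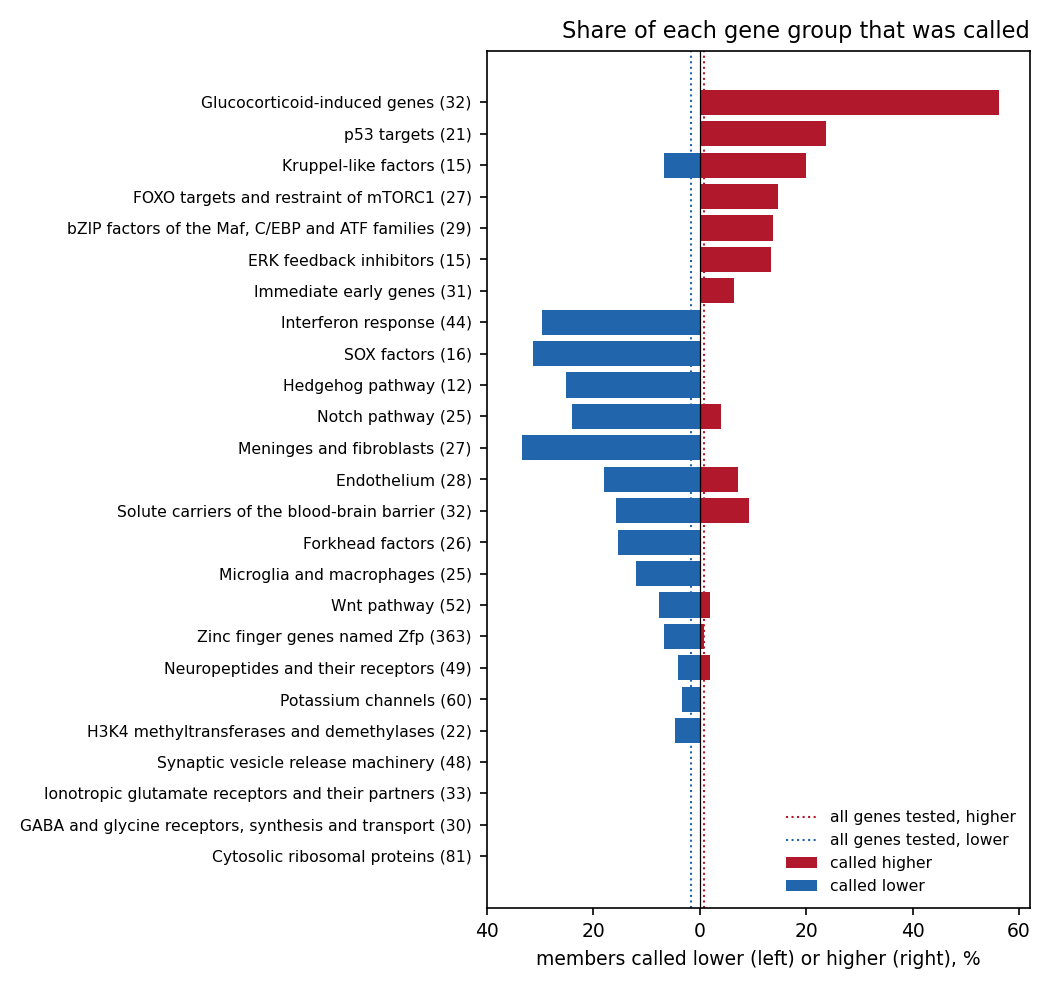
Share of the members tested (number in brackets) that were called higher (red, to the right) or lower (blue, to the left) in 25 gene groups, in percent. Dotted lines mark the shares among all genes tested, 0.891% and 1.62%. Glucocorticoid-induced genes have the largest share on the right, and the meningeal, SOX and interferon groups the largest on the left. The groups were chosen with earlier results of these data known.

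Among genes at a mean of 10 CPM or more that rose by 0.3 to 1 log2 units, the 15 of lowest p include Mafk, Errfi1, Klf15, Rhob and Klf9, described above, and 5 genes of transport, signalling and hormone activation. Slc2a1, the glucose carrier GLUT1 of brain vessels and glia, was at 79.2, 84.8 and 79.1 CPM with vehicle and at 163, 136 and 148 CPM with the inhibitor (log2 0.88, SE 0.07, adjusted p = 1.33e-05). Rhou, a small GTPase, was at 56.9, 58.98 and 57.3 CPM with vehicle and at 91.9, 86.9 and 85.5 CPM with the inhibitor (log2 0.61, SE 0.05, adjusted p = 1.33e-05). For both, the NS libraries, at 65.9 to 73.1 and 62.6 to 64.9 CPM, lay below every inhibitor library. Spns2, the exporter of sphingosine-1-phosphate, was at 51.2, 53.2 and 52.6 CPM with vehicle and at 81.1, 74.3 and 75.9 CPM with the inhibitor (log2 0.56, SE 0.05, adjusted p = 5.78e-05). Dio2, the deiodinase with which astrocytes activate thyroid hormone, was at 81.7, 83.3 and 80.5 CPM with vehicle and at 116, 112 and 110.5 CPM with the inhibitor (log2 0.46, SE 0.05, adjusted p = 0.000278). Ppp1r10, a nuclear subunit that targets protein phosphatase 1, was at 52.2, 53.97 and 50.3 CPM with vehicle and at 73.2, 75.9 and 81.5 CPM with the inhibitor (log2 0.56, SE 0.05, adjusted p = 9.01e-05). All 5 genes had every inhibitor library above every vehicle library, and all 5 kept their calls with the meningeal score as a covariate.

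Further genes of this size class were Tsc22d3, a leucine zipper protein induced by glucocorticoids, which rose by 0.71, and Polr3e, a subunit of RNA polymerase III, which rose by 0.54. Golm1, a Golgi membrane protein, rose by 0.47, Iffo2, an intermediate filament family orphan, by 0.51, and Islr2, a neuronal adhesion protein, by 0.53. Their adjusted p values were 0.000381, 0.000344, 0.000344, 0.000518 and 0.000555. Among the most abundant genes that rose, Klf13, a Kruppel-like factor, was at 233, 241 and 233 CPM with vehicle and at 297, 290.4 and 291 CPM with the inhibitor, and Slc38a2, a carrier of neutral amino acids, at 184, 158 and 157 CPM with vehicle and at 226, 206 and 231 CPM with the inhibitor. Lrrc58, a leucine-rich repeat gene, rose from 139 ± 7.42 to 175 ± 10.02 CPM and Bcl2l1, the survival gene BCL-XL, from 103 ± 7.55 to 129.7 ± 4.67 CPM. The log2 differences of these 4 genes were 0.31, 0.41, 0.33 and 0.33 (adjusted p = 0.00145, 0.00459, 0.00497 and 0.00748). Below 0.3 log2 units, Chpf2, an enzyme of chondroitin sulfate synthesis, rose by 0.30 and Chka, choline kinase, by 0.27, and 0 genes of that size that fell held their call without each library.

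Kruppel-like factors moved both ways. Of 15 tested, Klf15, Klf9 and Klf13 rose (20%, against 0.891% of all genes) and Klf6 fell (6.67%, against 1.62%). All 4 calls held whichever library was left out. Klf6, a factor of growth arrest and axon growth, was at 77.5, 83.2 and 81.3 CPM with vehicle and at 59.7, 55.8 and 58.1 CPM with the inhibitor (log2 -0.48, SE 0.06, adjusted p = 0.000769). Its NS libraries were at 70.2 to 81.7 CPM. The family's median was -0.03. None of the 4 calls was kept with the meningeal score as a covariate, and all 4 were with the striatal score. In the meningeal fit Klf15, Klf9, Klf13 and Klf6 had log2 differences of 0.55, 0.39, 0.32 and -0.42. Of 38 nuclear receptors, Rara, a retinoic acid receptor, rose from 11.6 ± 0.364 to 17.1 ± 1.31 CPM, and its relative Rarg fell from 9.77 ± 1.02 to 6.49 ± 0.543 CPM (adjusted p = 0.00272 and 0.00714). Another call in that family, of Nr2f2, was lost without any 1 of 5 libraries.

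Interferon-stimulated genes, which encode antiviral proteins, were lower with the inhibitor. Of 44 tested 13 fell, against 1.62% of all genes, and 0 rose. Members of this list too were chosen with earlier results of these data known. The median log2 difference was -0.53, and for 28 of the 44 every inhibitor library lay below every vehicle library, which held for 10.9% of all genes. The count was 7 when either SA:ANH-vehicle replicate 1 or inhibitor replicate 3 (SA:ANH-KDM5Ci) was left out, and 7 members kept their call whichever library was left out. With the meningeal score as a covariate 0 of the 13 calls were kept, and 7 with the striatal score. In the meningeal fit Tgtp1 and Irf9 had log2 differences of -1.68 and -0.67, against -1.63 and -0.54 without the score. Gbp4 and Oasl2 were at -1.05 and -0.65, against -1.44 and -0.98. Promoters of the called members often hold the core of the interferon-stimulated response element (GAAA, 2 bases of any kind, GAAA), to which a complex that contains IRF9 binds. It was found on either strand in 8 of the 12 called members with a promoter in the RefSeq table (GRCm38.p6), in 21 of 35 of the whole list and in 338 of 11898, or 2.84%, of all promoters searched. Windows around the match nearest the 5′ end are printed for 6 of these genes, 5′ to 3′ in the direction of the gene, with all matched bases in capitals.

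Gbp2 (chr3:142620589-142620628, plus strand): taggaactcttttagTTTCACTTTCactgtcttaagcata
Gbp3 (chr3:142559984-142560023, plus strand): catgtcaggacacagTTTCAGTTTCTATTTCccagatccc
Gbp7 (chr3:142530268-142530307, plus strand): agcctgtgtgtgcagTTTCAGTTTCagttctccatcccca
Tgtp1 (chr11:48992299-48992338, minus strand): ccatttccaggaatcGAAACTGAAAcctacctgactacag
Tgtp2 (chr11:49064258-49064297, minus strand): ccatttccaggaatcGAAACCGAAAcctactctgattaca
Isg15 (chr4:156200872-156200911, minus strand): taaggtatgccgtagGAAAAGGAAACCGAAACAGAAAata

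The matches in Gbp2, Gbp3, Gbp7, Tgtp1, Tgtp2 and Isg15 begin 59, 45, 53, 77, 70 and 78 bases before the start. In the 3 Gbp genes, which neighbour each other on chromosome 3, the element lies on the other strand and reads TTTC, 2 bases, TTTC. A match is a description of the letters and does not show that a factor binds there. Gbp2, an interferon-induced GTPase, was at 5.46, 5.01 and 4.82 CPM with vehicle and at 3.48, 2.52 and 2.36 CPM with the inhibitor (log2 -0.88, SE 0.14, adjusted p = 0.00519). Irf9, which has no match in its window, was at 9.82, 10.4 and 9.56 CPM with vehicle and at 6.99, 6.56 and 6.85 CPM with the inhibitor (log2 -0.54, SE 0.09, adjusted p = 0.00551). In NS, Gbp2 was at 3.50 to 3.85 and Irf9 at 7.02 to 8.37 CPM, below every vehicle library for both genes. Gbp3, named because its promoter is printed, fell by 0.77 on the log2 scale, Gbp4 by 1.44 and Oasl2 by 0.98 (adjusted p = 0.00858, 0.00263 and 0.00716). Tgtp1 and Tgtp2 fell from 1.18 ± 0.0716 to 0.370 ± 0.137 CPM and from 1.15 ± 0.135 to 0.391 ± 0.0587 CPM. They are near-identical copies, as are Ifit3 and Ifit3b, so counts may be split between copies. The whole promoter of Gbp2, with the element in capitals near the start, is given for its context.

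Gbp2 (chr3:142620413-142620712, plus strand): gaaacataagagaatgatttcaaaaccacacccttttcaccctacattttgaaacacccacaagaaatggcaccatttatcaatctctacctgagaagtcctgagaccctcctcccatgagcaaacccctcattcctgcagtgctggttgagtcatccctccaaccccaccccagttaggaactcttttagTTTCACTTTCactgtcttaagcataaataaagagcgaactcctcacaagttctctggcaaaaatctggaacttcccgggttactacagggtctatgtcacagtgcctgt

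The other interferon calls needed single libraries, and few other immune genes were called. Trim25, Gbp7, Ifnar1, Ifit3, Ifit3b and Isg15 fell by 0.61, 0.55, 0.21, 0.50, 0.53 and 1.02. The call of Trim25 needed SA:ANH-vehicle replicates 1 and 2 and SA:ANH-KDM5Ci replicate 3, that of Gbp7 the first and last of these, and the others were lost without any 1 of 6 to 8 libraries. Of 30 cytokines, chemokines and their receptors 0 rose and 3 fell (10%, against 1.62% of all genes). Cxcl12, a chemokine of vessels and meninges, was at 113, 99.5 and 98.1 CPM with vehicle and at 76.97, 67.3 and 59.7 CPM with the inhibitor (log2 -0.61, SE 0.09, adjusted p = 0.00444). Il10rb, a subunit of interleukin 10 and interferon lambda receptors, fell from 10.02 ± 0.250 to 6.31 ± 0.778 CPM, and Tnfsf10, the death ligand TRAIL, from 5.05 ± 1.33 to 1.65 ± 0.222 CPM. Tlr7, the receptor for single-stranded RNA, rose from 4.37 ± 0.222 to 8.38 ± 1.07 CPM (adjusted p = 0.0036). Nfkbia, which encodes the inhibitor of NF-kB and is a glucocorticoid target, was at 17.5, 16.5 and 14.9 CPM with vehicle and at 52.7, 40.9 and 50.5 CPM with the inhibitor, while 0 of the other 22 NF-kB genes were called. Of 21 genes of antigen presentation and 16 of complement, 0 were called.

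Some SOX factors, which act in neural progenitors, glia and vessels, fell. Of 16 SOX factors 5 fell, against 1.62% of all genes, and 0 rose. For 10 of 16 the inhibitor libraries lay wholly below the vehicle libraries, against 10.9% of all genes, and the median was -0.28. All 5 calls held whichever library was left out. Sox9, a factor of astrocytes and progenitors (chromosome 11, 112782210 to 112787757, GRCm38), was at 33.8, 33.7 and 33.2 CPM with vehicle and at 15.1, 17.1 and 17.1 CPM with the inhibitor (log2 -1.03, SE 0.06, adjusted p = 1.2e-06). Sox2, a factor of progenitors and astrocytes, was at 41.3, 39.1 and 40.2 CPM with vehicle and at 31.2, 26.6 and 27.9 CPM with the inhibitor (log2 -0.50, SE 0.07, adjusted p = 0.00122). In NS, Sox9 was at 34.9 to 37.1 and Sox2 at 39.9 to 44.3 CPM, so the inhibitor libraries lay below both other groups for each. Sox17 and Sox18, which act in endothelium, fell from 6.41 ± 0.126 to 3.78 ± 0.338 and from 7.92 ± 0.534 to 4.67 ± 0.980 CPM, and Sox13 from 7.90 ± 0.118 to 5.14 ± 0.325 CPM (adjusted p = 0.0029, 0.00706 and 0.00642). When the meningeal score was a covariate, Sox9 alone of the 5 kept its call. In that fit Sox2 and Sox18 had log2 differences of -0.55 and -0.95, against -0.50 and -0.76 without the score. Sox17 and Sox13 were at -0.60 and -0.48, against -0.77 and -0.62. The astrocyte markers as a whole did not move with Sox9: their score was -0.037 to 0.0781 with the inhibitor and -0.0458 to -0.00136 with vehicle, and Slc1a2, their most abundant member, was at 0.06.

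Among genes that fell by 0.3 to 1 log2 units were 3 of RNA-binding proteins and a neuronal factor. Zfp36l1 and Zfp36l2, RNA-binding proteins that promote decay of AU-rich transcripts, were at 24.2, 21.7 and 23.5 CPM with vehicle and at 13.1, 13.9 and 12.8 CPM with the inhibitor, and at 25.8, 25.3 and 24.7 CPM and 17.4, 17.4 and 16.8 CPM, with log2 differences of -0.80 and -0.56 (adjusted p = 8.19e-05 and 0.000381). Mex3b, another RNA-binding protein, was at 29.8, 28.5 and 28.9 CPM with vehicle and at 18.05, 18.6 and 17.8 CPM with the inhibitor (log2 -0.68, SE 0.06, adjusted p = 4.88e-05). Pou3f2, the neuronal factor BRN2, was at 54.98, 49.9 and 48.5 CPM with vehicle and at 37.7, 39.2 and 35.5 CPM with the inhibitor (log2 -0.45, SE 0.06, adjusted p = 0.00106). Every inhibitor library lay below every vehicle library for these 4 genes. Of 26 forkhead factors 4 fell (15.4%, against 1.62% of all genes) and 0 rose. Those that fell were the meningeal factors Foxc1 (-0.94) and Foxd1 (-1.26), Foxq1 (-0.74), and Foxc2, which lost its call without any 1 of 4 libraries. Tbx3, a T-box factor, fell from 3.28 ± 0.282 to 1.55 ± 0.221 CPM. Zic2 and Zic4, of the Zic family of meninges, septum and olfactory bulb, fell by 0.87 and 0.90. The adjusted p values of Foxc1, Foxd1, Foxq1, Tbx3, Zic2 and Zic4 were 0.00547, 0.00708, 0.00783, 0.00576, 0.00145 and 0.0074. Olig1 and Olig2, factors of the oligodendrocyte lineage, rose by 0.47 and 0.72. Their calls were lost without any 1 of 7 and 4 libraries, among them SA:ANH-vehicle replicate 2 (adjusted p = 0.147 and 0.0868). Both are among 17 markers of oligodendrocyte precursors, of which 3 rose (17.6%, against 0.891% of all genes), with Vcan, the matrix proteoglycan versican, at 0.34, and 1 fell, Bmp4. The score of these markers was 0.00168 to 0.106 with the inhibitor and -0.113 to -0.00703 with vehicle, without overlap, and its part in the rise of Olig1 and Olig2 was not tested. The count of 3 was 0 when SA:ANH-vehicle replicate 2 or 3 or SA:ANH-KDM5Ci replicate 1 was left out, and 1 without SA:ANH-KDM5Ci replicate 2 or 3.

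**Figure D4:**
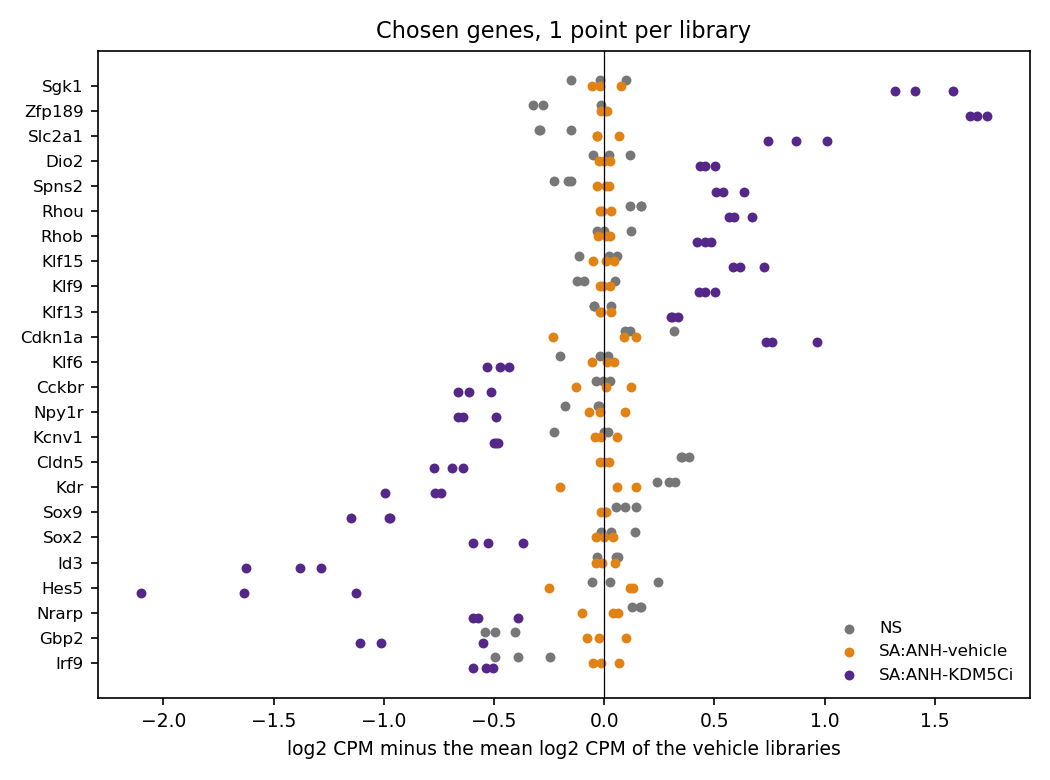
Log2 CPM of 24 chosen genes minus the mean log2 CPM of the vehicle libraries (horizontal axis), 1 point per library, in NS (grey), SA:ANH-vehicle (orange) and SA:ANH-KDM5Ci (purple). The inhibitor libraries lie wholly to the right of the vehicle libraries for the upper 11 genes and wholly to the left for the lower 13.

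In Notch signalling, contact between neighbouring cells drives repressors of the Hes and Hey families and keeps progenitors undifferentiated. Of 25 Notch genes 1 was higher (4%, against 0.891% of all genes) and 6 were lower (24%, against 1.62%). The list's median was -0.11. Hes5 was at 10.9, 14.1 and 14.2 CPM with vehicle and at 5.94, 4.17 and 3.01 CPM with the inhibitor (log2 -1.59, SE 0.20, adjusted p = 0.00259). Nrarp, a Notch target that dampens the signal, was at 19.8, 21.8 and 22.2 CPM with vehicle and at 14.2, 16.2 and 14.02 CPM with the inhibitor (log2 -0.52, SE 0.07, adjusted p = 0.00181). In NS they were at 12.5 to 15.4 and 23.1 to 23.8 CPM, so the inhibitor libraries lay below both groups. Lfng, a sugar transferase that modifies Notch receptors, rose from 15.2 ± 1.87 to 22.7 ± 3.15 CPM (adjusted p = 0.00946). Heyl, Hey2, Dtx4 and Numb fell by 0.75, 0.58, 0.25 and 0.24, calls lost without any 1 of 4 to 8 libraries. When SA:ANH-vehicle replicate 2 or inhibitor replicate 3 (SA:ANH-KDM5Ci) was left out, 2 Notch genes were called lower. The receptors Notch1 to Notch4, named outside the rule after their values were seen, had log2 differences of -0.11, -0.21, 0.02 and 0.17 and were not called. The element GTGGGAA of RBPJ, the DNA-binding partner of Notch, was found on either strand in 3 of the 5 called genes with a promoter, in 4 of 20 of the list and in 6.30% of 11898 promoters. The 3 were Hes5 and Hey2, which fell, and Lfng, which rose. The RefSeq promoter of Hes5 (GRCm38.p6) holds the element on both strands, in capitals, and windows of the other 2 are printed beside it.

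Hes5 (chr4:154960673-154960972, plus strand): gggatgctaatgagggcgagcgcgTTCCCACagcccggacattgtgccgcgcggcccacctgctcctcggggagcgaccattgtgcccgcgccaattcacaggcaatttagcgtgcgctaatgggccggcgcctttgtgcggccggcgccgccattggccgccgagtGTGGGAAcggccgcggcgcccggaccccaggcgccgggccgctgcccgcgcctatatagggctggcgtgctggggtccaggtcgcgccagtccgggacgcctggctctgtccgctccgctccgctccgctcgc
Hey2 (chr10:30842969-30843005, minus strand): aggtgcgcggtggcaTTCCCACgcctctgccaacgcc
Lfng (chr5:140607217-140607253, plus strand): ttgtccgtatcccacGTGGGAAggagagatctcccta

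In Lfng the element overlaps an E-box (CACGTG, found in 9.7% of all promoters), and no match of the other 11 motifs searched overlapped a printed element. In the other pathways of development, most calls needed single libraries. Of 41 genes of BMP and TGF-beta signalling 0 rose and 4 fell (9.76%, against 1.62% of all genes). Id3, a target of BMP signalling that blocks basic helix-loop-helix factors, was at 19.01, 20.2 and 19.4 CPM with vehicle and at 8.01, 6.33 and 7.49 CPM with the inhibitor (log2 -1.42, SE 0.08, adjusted p = 1.2e-06), and every inhibitor library lay below every vehicle library. Id1, Inhbb and Bmp4 fell by 0.59, 0.64 and 0.67, calls that ended when SA:ANH-vehicle replicate 2 was left out (adjusted p = 0.117, 0.0848 and 0.105) and without 3 to 7 other libraries. Of 52 Wnt genes 1 rose (1.92%, against 0.891% of all genes) and 4 fell (7.69%, against 1.62%). Wnt9a, a Wnt ligand, was at 32.8, 30.8 and 29.5 CPM with vehicle and at 20.4, 24.4 and 22.01 CPM with the inhibitor and Notum, a Wnt-inactivating lipase, fell from 2.51 ± 0.0628 to 1.22 ± 0.111 CPM (adjusted p = 0.00281 and 0.0034). Of 12 Hedgehog genes 3 fell (25%), Gas1, Boc and Shh, with a median of -0.22 over the list, and the count was 0 when SA:ANH-vehicle replicate 1 or 3 or inhibitor replicate 1 or 3 (SA:ANH-KDM5Ci) was left out. Ephb3, an Eph receptor, was at 38.5, 36.4 and 38.3 CPM with vehicle and at 27.6, 28.4 and 26.5 CPM with the inhibitor (log2 -0.46, SE 0.06, adjusted p = 0.00181).

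Zinc finger genes named Zfp, most of which encode C2H2 proteins and many of which repress transcription, had mostly small negative differences. Of 363 tested (Zfp36 and its relatives, which are RNA-binding, left out), 24 fell (6.61%, against 1.62% of all genes) and 3 rose (0.826%, against 0.891%). The median log2 difference was -0.09 against 0.00 over all genes. For 111 members all inhibitor libraries lay below all vehicle libraries and for 21 above, against 10.9% and 7.92% of all genes. The calls rested on single libraries: without SA:ANH-KDM5Ci replicate 3, 3 members were lower. With the meningeal score 0 and with the striatal score 3 of the 24 calls were kept. Zfp712 was at 10.5, 9.74 and 11.7 CPM with vehicle and at 6.96, 7.01 and 7.07 CPM with the inhibitor and Zfp882 at 12.7, 12.4 and 11.8 CPM with vehicle and at 9.19, 8.66 and 8.96 CPM with the inhibitor, and these 2 decreases held whichever library was left out (adjusted p = 0.00308 and 0.00496). Against the family, Zfp189 was at 7.78, 7.73 and 7.62 CPM with vehicle and at 25.7, 24.9 and 24.3 CPM with the inhibitor (log2 1.70, SE 0.08, adjusted p = 3.22e-07), and Zfp628 rose from 12.6 ± 0.407 to 18.02 ± 1.40 CPM. Of the 24 that fell, 7 are on chromosome 17 (of 45 tested there), 4 on chromosome 13 (of 38) and 3 on chromosome 7 (of 87), where such genes form clusters.

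The family's transcripts are poor in G and C, with a median of 44.4% against 49.8% for all genes, and GC content itself moved with the change. Over all genes other than Zfp, the median log2 difference went from -0.02 in transcripts under 42% GC to 0.04 at 58% and above. Within the lowest class, 136 Zfp genes had a median of -0.15 and 57 of them (41.9%) lay wholly below vehicle, against -0.02 and 14.5% of the 1653 other genes. At 46 to 50% GC the medians were -0.12 in 54 Zfp genes and 0.00 in 3070 others. At 54 to 58% they were 0.00 and 0.02, and no Zfp gene there was called lower. The part of library preparation in this relation was not tested.

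**Figure D5:**
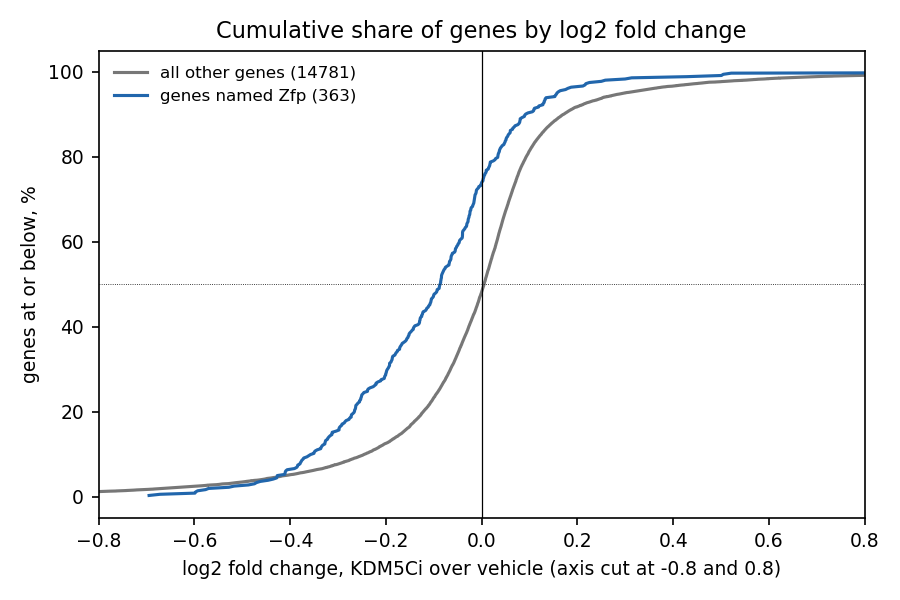
Cumulative share of genes (vertical axis, percent) by log2 fold change (horizontal axis, cut at -0.8 and 0.8) for 363 genes named Zfp (blue) and all other genes tested (grey). The blue curve lies to the left through most of its range, with a median of -0.09.

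Genes of brain vessels moved in both directions. Of 28 endothelial markers 2 rose (7.14%, against 0.891% of all genes) and 5 fell (17.9%, against 1.62%). All 7 calls held whichever library was left out, and the median was -0.13. The glucose carrier Slc2a1 and Mfsd2a, the carrier of docosahexaenoic acid that restrains transcytosis, rose, the latter from 17.9 ± 0.262 to 24.5 ± 1.07 CPM. Cldn5, the main claudin of their tight junctions, was at 29.9, 30.2 and 30.7 CPM with vehicle and at 18.7, 17.7 and 19.4 CPM with the inhibitor. Kdr, a VEGF receptor, was at 18.3, 14.4 and 17.2 CPM with vehicle and at 9.91, 9.73 and 8.31 CPM with the inhibitor. In NS, Cldn5 was at 38.6 to 39.6 and Kdr at 19.6 to 20.7 CPM, above every library of both stressed groups. Bsg and Cd34, abundant markers of the list, were at -0.05 and -0.10, uncalled. Slc2a1 and Cldn5 kept their calls with the meningeal score as a covariate, and the other 5 did not. Among 32 carriers of the blood-brain barrier 3 rose (9.375%) and 5 fell (15.6%). Slc40a1, the iron exporter ferroportin, was at 13.2, 13.02 and 14.1 CPM with vehicle and at 8.50, 8.63 and 8.19 CPM with the inhibitor (log2 -0.67, SE 0.08, adjusted p = 0.000387), and Slc16a1, the lactate and ketone body carrier MCT1, at 41.8, 35.2 and 37.8 CPM with vehicle and at 29.3, 30.1 and 27.98 CPM with the inhibitor (log2 -0.40, SE 0.07, adjusted p = 0.00979). For these carriers too the inhibitor libraries lay wholly below. Slc22a8 and Slc30a10 fell by 0.61 and 0.45, calls that did not hold without every library. Among pericyte genes, Pdgfrb, a PDGF receptor, fell by 0.45, and Rgs5, their abundant marker, was at -0.07.

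Genes of neuronal signalling held few changes among many members without a call. Cckbr, the main cholecystokinin receptor of cortex, was at 72.7, 80.1 and 86.5 CPM with vehicle and at 52.04, 55.7 and 50.2 CPM with the inhibitor (log2 -0.60, SE 0.06, adjusted p = 0.000209). Npy1r, a receptor of neuropeptide Y, was at 39.1, 36.1 and 34.9 CPM with vehicle and at 26.1, 23.1 and 23.5 CPM with the inhibitor (log2 -0.60, SE 0.07, adjusted p = 0.00036). Kcnv1, a silent subunit that tunes potassium channels, was at 171, 183 and 174 CPM with vehicle and at 125, 126 and 125 CPM with the inhibitor (log2 -0.49, SE 0.06, adjusted p = 0.000743). In all 3 the inhibitor libraries lay below the vehicle libraries, and below the NS libraries at 77.6 to 81.2, 32.4 to 36.03 and 150.2 to 178 CPM. These were 2 of 49 neuropeptide genes and 1 of 60 potassium channel genes. Of all members of these lists 4.08% and 3.33% were called lower, against 1.62% of all genes. The gene of the ligand cholecystokinin, Cck, was at 0.05 (adjusted p = 0.857). Mc4r, a melanocortin receptor, rose by 1.27, a call lost without any 1 of the 3 inhibitor libraries, and Kcna4 fell by 0.41, a call that ended when SA:ANH-vehicle replicate 2 was left out (adjusted p = 0.0543). Rgs2, which speeds the end of G protein signals, fell from 52.6 ± 3.19 to 40.2 ± 1.16 CPM, and Rasgef1b, an activator of Rap2, from 71.97 ± 3.56 to 49.6 ± 0.908 CPM (adjusted p = 0.00789 and 0.000743). Neurod1, a factor of excitatory neurons, fell by 0.44 (adjusted p = 0.00713). With the meningeal score as a covariate Cckbr and Rgs2 kept their calls, and Npy1r, Kcnv1, Rasgef1b and Neurod1 did not. In that fit the latter were at -0.44, -0.40, -0.35 and -0.55, against -0.60, -0.49, -0.54 and -0.44 without the score.

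No calls were made in 4 other lists. These were 33 genes of ionotropic glutamate receptors and their partners and 30 of GABA and glycine transmission. The others were 29 sodium, calcium and HCN channels and 48 genes of the vesicle release machinery. Over all genes 2.51% were called, so in lists of this size 0 calls is close to that share. Their median log2 differences were 0.03, 0.01, 0.02 and 0.03. Groups without overlap were seen in 7 higher and 0 lower genes of the ionotropic glutamate list, 0 of the GABA list, 2 higher and 1 lower of the channel list and 4 higher and 2 lower of the vesicle list, against 7.92% and 10.9% of all genes. In the glutamate list 25 of 33 differences were positive. In simulated data, 34% of genes changed by 0.3 log2 units were recovered and 78% of those changed by 0.5, so changes of 0.3 or less could be missed. Grm2, a presynaptic glutamate receptor, fell by 0.37, and Adrb1, a beta adrenoceptor, by 0.45, calls lost without any 1 of 5 and 6 libraries. Drd2, a dopamine receptor of striatal neurons, was at 2.79, 1.60 and 1.41 CPM with vehicle and at 8.86, 2.49 and 4.61 CPM with the inhibitor (log2 1.43, adjusted p = 0.322), and its groups overlapped. Drd2 and Pde10a are members of the list behind the striatal score, so that they moved with it was in part built in. Pde10a was at 75.6, 70.4 and 60.3 CPM with vehicle and at 181, 84.7 and 129.5 CPM with the inhibitor.

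Markers of cell classes other than the meninges differed in how many were called. Of 26 interneuron markers 0 were called, and Gad1, which makes GABA, was at 0.05. Of 19 excitatory markers Neurod1 alone fell, while Slc17a7, the vesicular glutamate carrier, was at -0.01. Of 21 markers of deep cortical layers 0 were called, although their scores did not overlap, at 0.0275 to 0.102 with the inhibitor and -0.0282 to 0.0078 with vehicle. Of 25 microglial genes 3 fell (12%, against 1.62% of all genes). P2ry13, a purine receptor, was at 12.6, 13.4 and 13.4 CPM with vehicle and at 8.43, 7.21 and 7.14 CPM with the inhibitor (log2 -0.79, SE 0.10, adjusted p = 0.000822), and Sall1, a factor of microglial identity, at 26.3, 23.9 and 24.3 CPM with vehicle and at 19.9, 18.2 and 17.2 CPM with the inhibitor (log2 -0.43, SE 0.07, adjusted p = 0.0043). The inhibitor libraries lay below for both, and Gpr34 lost its call without any 1 of 7 libraries. The abundant microglial gene Csf1r was at 0.04, and the list's median was -0.01. Of 24 myelin genes 0 were called, with a median of 0.34, and Mbp was at 1424, 954 and 948 CPM with vehicle and at 1730.0, 1299.6 and 1643 CPM with the inhibitor, which overlapped. Of 27 meningeal genes 9 fell (33.3%, against 1.62% of all genes). For 24 of the 27 the inhibitor libraries lay wholly below the vehicle libraries, against 10.9% of all genes. Foxc1 and Foxd1 held their calls whichever library was left out, and the count was 3 when SA:ANH-vehicle replicate 1 or inhibitor replicate 1 or 3 (SA:ANH-KDM5Ci) was left out. Ptgds, their most abundant gene, was at 609, 480.0 and 461 CPM with vehicle and at 284, 311 and 411 CPM with the inhibitor (log2 -0.62, adjusted p = 0.303). Of 42 collagens 0 were called, and 10 lay wholly below vehicle, Col1a1 at -0.71 among them.

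Housekeeping families showed no calls. These were 81 cytosolic and 78 mitochondrial ribosomal proteins, 36 subunits of complex I, 39 of the proteasome, 19 tubulins, 35 kinesins and 20 aminoacyl-tRNA synthetases. Over all genes 2.51% were called, so 0 calls in a single family of these sizes is close to that share. The medians of these families lay between 0.03 and 0.08. Small positive differences prevailed, in 78, 58, 36, 34, 16, 25 and 15 members in that order, whereas 51.1% of all genes had a positive difference. Of 25 cyclins 0 were called, against 2.51% of all genes, and 9 lay wholly below vehicle, against 10.9%. Ccnt2, a partner of the elongation kinase CDK9, was among the 9 (-0.30, adjusted p = 0.0601). Of 34 RNA-binding motif genes 0 rose and 3 fell (8.82%, against 1.62% of all genes). Rbm12 led them, at 23.2, 22.1 and 22.1 CPM with vehicle and at 16.1, 16.8 and 14.7 CPM with the inhibitor. Its log2 difference was -0.50 (SE 0.07, adjusted p = 0.00107). Of 288 solute carriers of all families 3 rose (1.04%) and 9 fell (3.125%). Of 183 genes named Tmem 1 rose (0.546%) and 2 fell (1.09%). The shares over all genes were 0.891% and 1.62%. Tmem252 rose from 0.599 ± 0.294 to 6.88 ± 2.81 CPM, and Tmem64 fell from 80.8 ± 1.85 to 63.7 ± 5.05 CPM. In all, 204 of the 380 called genes belonged to 1 or more of the 59 lists and 73 families examined, and 176 to none.

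Called genes shared features of structure. Genes with 1 or 2 exons made up 7.93% of all genes tested, 18.5% of those that rose and 17.4% of those that fell. The median number of exons was 9 over all genes and 5 in each direction. Of 1175 genes with 1 or 2 exons 2.13% rose and 3.57% fell, and of 6103 genes with over 10 exons 0.655% rose and 0.934% fell. Among the genes named, Id3, Cldn5, Sox9, Rhob and Hes5 are short, spanning 1571, 1416, 5548, 2349 and 1747 bases. Short genes as a class were called at near the shares of all genes. Of 1904 genes spanning under 5 kb 1.05% rose and 1.63% fell, against 0.891% and 1.62% of all genes. The median GC content of the transcript was 53.01% for genes that rose and 47.72% for genes that fell. By chromosome, the share that fell was highest on chromosome 3, at 3.29% of 729 genes, where Gbp2, Gbp3 and Gbp7 lie together, and no gene of 517 on chromosome 14 rose. On the X chromosome, which carries Kdm5c, 3 of 540 genes rose and 5 fell.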

How the data were processed

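RNA of the medial prefrontal cortex was sequenced, per the labels' protocols, from strand-specific libraries. The submitters' processing notes name Trimmomatic 0.32, TopHat2 2.0.13, Bowtie2 2.2.3 and the mouse build mm10. How reads were counted, and whether strand was used, is not given in the sources used here. Whether reads of overlapping or antisense genes were kept apart is therefore not known. The deposited table holds expected counts per gene, which the authors did not scale and which were rounded to whole numbers here. Of its 36172 features 32891 were matched to a gene symbol, and features without a match held 0.3672% of the counts.

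All 9 libraries were fitted together with edgeR 4.0.16 (R 4.3.3): filterByExpr, TMM scaling, and a robust quasi-likelihood test of SA:ANH-KDM5Ci minus SA:ANH-vehicle with Benjamini-Hochberg adjustment over 15144 genes at 0.05. Log2 values are differences, and CPM levels are counts scaled to the TMM-adjusted library total. Libraries held 29845097 to 42196472 counts, and no 2 were identical. On simulated data from 15032 genes the test recovered 34, 78, 86 and 96% of genes changed by 0.3, 0.5, 1 and 1.5 log2 units, with 13 false calls among 160.

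The gene lists, families and members were chosen with earlier results of these data known. Named genes held their call without any 1 library and had groups without overlap. They were those of lowest p between 0.3 and 1 log2 units at 10 CPM or more, of largest change at 1 CPM or more, of highest level, of lowest p under 0.3, and up to 6 per list and direction. The 4 most abundant genes per cell class, the Kdm5 genes, members of lowest p in lists without such a call, and list members whose call needed a library were named too. Promoters are from RefSeq (GRCm38.p6), and 13 motifs were searched on both strands. Alternatives were DESeq2 1.42.0, limma-voom (limma 3.58.1), other scaling, filters and thresholds, a fit of 6 libraries, a replicate block, each library left out, and marker scores as covariates. Some genes are not reported here.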

Additional observations from a re-analysis of the deposited data

How the results depend on the processing

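The 135 higher and 245 lower genes became 189 and 293 with DESeq2 and 135 and 229 with limma-voom. They were 120 and 174 in a fit of the 6 libraries compared, and between 121 and 138 higher and 234 and 293 lower with other scaling, filters or no robust fit. At an adjusted p under 0.01 they were 75 and 96, and under 0.10 they were 213 and 380. Leaving out 1 library gave 85 to 160 higher and 105 to 269 lower genes. With a marker score as a covariate, added after the data had been seen, they were 18 and 18 (meninges), 76 and 120 (striatum) and 109 and 191 (myelin). With a replicate block they were 161 and 202. No label pairs the samples by number. Correlations of deviations between libraries of the same number were 0.238, 0.0839 and 0.184, and those between different numbers ran from -0.251 to 0.0851. Only SA:ANH-KDM5Ci replicate 2 correlated best with another number, at 0.0851 with SA:ANH-vehicle replicate 3 against 0.0839 with replicate 2. Whether replicates of the same number were matched is thus not known, and the main fit treats them as unpaired. With 3 libraries a group, genes under 1 CPM and changes under 0.3 log2 units were rarely called. Of the 127 genes named with a call, at most 4 lost it with DESeq2, limma-voom, other scaling or filters or no robust fit. It was kept by 112 with 6 libraries, 117 with the block, 98 to 125 without 1 library, and 26, 91 and 108 with the meningeal, striatal and myelin score. None changed direction in these fits. The causes of lost calls were not tested.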
